A study of Mus musculus with 24 samples.

Results

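Transcript levels of 9 Toll-like receptors (Tlr1, Tlr2, Tlr3, Tlr4, Tlr6, Tlr7, Tlr8, Tlr9 and Tlr13) and of Cd14 were followed in mouse bone marrow-derived macrophages of 2 genotypes under 3 treatments. The 10 genes were chosen by symbol through their Ensembl identifiers in GENCODE M21. They are 10 of the 54532 genes in the authors' table of FPKM, a fragment count corrected for exon length and for how deeply the library was sequenced. The unit allows levels to be compared between genes of different length. All 10 genes reached an FPKM of 1 in all 24 libraries, so none was lost to the filter on low values.

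Bone marrow cells of C57BL/6 mice were grown for 7 days with supernatant of L929 fibroblasts, which holds the growth factor that macrophages need. The mice were wild-type (WT) or carried the genotype Trem2(-/-), called knockout (KO) here, Trem2 being a lipid-binding surface receptor of macrophages. Cells of each genotype were left untreated, received sphingosine-1-phosphate (S1P, a lipid signal with its own G protein-coupled receptors) at 500 nM for 24 hours, or received apoptotic cell medium (ACM) for 24 hours. For ACM, the mouse hepatocyte line AML12 was driven into apoptosis with palmitic acid at 800 µM, and serum-free medium was then left on these cells and collected. Each of the 6 groups has 4 libraries, named here by genotype, treatment and library number.

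The sources used here do not give the Trem2 allele, the medium or vehicle of the untreated cells, or which libraries share an animal or culture. The spread on which the p-values rest is therefore that of these libraries, and it may be technical. There is no group with palmitic acid alone or with medium of healthy AML12 cells, so products of dying cells and any remaining palmitic acid cannot be told apart. Each genotype and each treatment within it has its own run of library numbers, so treatment and genotype cannot be told apart from the order of library preparation, if that followed the numbers. These are bulk samples, in which fewer cells of a type and less RNA per cell cannot be told apart.

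Toll-like receptors are membrane proteins that recognise conserved microbial molecules and some products of damaged cells, and signal through adaptors to NF-kB and interferon regulatory factors. Tlr1, Tlr2, Tlr4 and Tlr6 sit at the cell surface, where Tlr2 pairs with Tlr1 or Tlr6 to bind bacterial lipopeptides and Tlr4 detects lipopolysaccharide, which Cd14 delivers to it. Tlr3, Tlr7, Tlr8, Tlr9 and Tlr13 work in endosomes, a class that reads nucleic acids. Known ligands are duplex RNA for Tlr3, single-stranded RNA and nucleosides for Tlr7 and unmethylated CpG DNA for Tlr9. Bacterial ribosomal RNA is the ligand of Tlr13, which mice have and humans lack. Endosomal receptors need the chaperone Unc93b1 to leave the endoplasmic reticulum.

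RefSeq start sites (GRCm38.p6) with a full 250-base window upstream were at hand for 7 of the 10 genes, in 9 windows, and 5 stretches are shown because their genes differed between treatments of WT cells and the stretch holds searched letters outside every GENCODE exon. They lie at chr3:83841768-83841858 (minus strand, upstream of Tlr2), chr8:45410381-45410452 (minus strand, between annotated exons of Tlr3), chr5:64933564-64933808 (minus strand, upstream of Tlr1), chrX:106143025-106143203 (plus strand, upstream of Tlr13) and chrX:167264330-167264579 (minus strand, upstream of Tlr8). Each reads 5′ to 3′ on the strand of its gene. Capitals mark NF-kB letters (GGG and CC with any 5 bases between them, on either strand; 2 matches overlap in Tlr2) in Tlr2 and Tlr3 and PU.1 letters (GAGGAA on either strand) in Tlr1, Tlr13 and Tlr8.
Tlr2: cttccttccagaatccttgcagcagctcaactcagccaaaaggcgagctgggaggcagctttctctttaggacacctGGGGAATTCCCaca
Tlr3: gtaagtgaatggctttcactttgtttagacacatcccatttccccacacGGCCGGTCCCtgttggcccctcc
Tlr1: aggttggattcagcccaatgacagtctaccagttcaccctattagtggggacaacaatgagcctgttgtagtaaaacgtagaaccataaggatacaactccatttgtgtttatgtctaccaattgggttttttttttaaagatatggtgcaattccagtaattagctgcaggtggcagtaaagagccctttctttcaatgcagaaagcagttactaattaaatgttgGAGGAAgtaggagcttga
Tlr13: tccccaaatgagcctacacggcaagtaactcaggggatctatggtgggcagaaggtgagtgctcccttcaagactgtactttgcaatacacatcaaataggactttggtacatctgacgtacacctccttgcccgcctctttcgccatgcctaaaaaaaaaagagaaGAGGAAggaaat
Tlr8: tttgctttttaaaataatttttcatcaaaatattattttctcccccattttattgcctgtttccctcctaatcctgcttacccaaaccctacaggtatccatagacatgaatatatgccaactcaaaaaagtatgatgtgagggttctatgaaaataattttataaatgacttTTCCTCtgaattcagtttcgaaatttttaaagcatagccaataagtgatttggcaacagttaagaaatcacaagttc
NF-kB letters were in 3 of the 9 windows of these genes and in 45.8% of 32851 windows of all genes. PU.1 letters were in 4 of 9 windows and in 23.3% of all. ISRE letters (TTTC and TTTC with any 2 bases between them, on either strand) were in 1 of 9, before a start site inside Tlr6, and in 2.98% of all. AP-1 letters (TGANTCA, either strand) and E-box letters (CACGTG) were in 1 of 9 windows each, against 6.75% and 6.02% of all, and CRE letters (TGACGTCA) in 0 of 9, against 1.55%. These are matches of letters and show no binding.

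The series was checked through Trem2 first. Its FPKM was 74.5 to 109 in the 12 WT libraries and 35.7 to 40.7 in 11 KO libraries, but 79.6 in the library labelled KO untreated 81, inside the range of WT untreated cells (74.5 to 82.7). In Trem2 that library goes against its label, so it is shown apart and the tests use the other 23 libraries. Values with it are given where they change a call. Recovered depth was 16591455 to 25153883 reads per library. In each group 8 of 8 macrophage markers reached an FPKM of 1 in a library, and their sum was 7261 to 7484 in WT untreated, 5811 to 6537 in WT ACM, 4190 to 5769 in WT S1P and 4092 to 4660 in the 3 KO groups without library 81. Neutrophil markers summed to 5.43 to 10.7 in WT cells and 15.3 to 23.3 in those KO cells, and monocyte markers to 26.1 to 28.8 in WT untreated and 10.54 to 20.03 in WT S1P cells. The lists for dendritic, B, T or NK, fibroblast and mast or erythroid cells summed to at most 1.20, with Cd3e listed at 0 in all 24 libraries. Hepatocyte markers summed to 0.960 to 3.24, highest in WT S1P cells. The part of these markers in the results was not tested.

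In untreated WT macrophages Cd14 was by far the highest of the 10 transcripts and the endosomal receptors made up most of the Toll-like receptor signal. Cd14 had an FPKM of 627, 664, 637 and 666 in the 4 libraries, a mean of 649 ± 19.5 (SD, n = 4), which ranks 42 among 21995 protein-coding genes. Tlr13 followed at 79.2, 81.5, 81.1 and 84.1, and Tlr7 at 57.8, 56.5, 58.3 and 60.5. Tlr4 (28.9 ± 1.01), Tlr8 (23.7 ± 0.742), Tlr2 (18.9 ± 0.717) and Tlr1 (14.3 ± 0.449) came next, and Tlr3 (7.04 ± 0.357), Tlr6 (4.94 ± 0.453) and Tlr9 (3.24 ± 0.358) were the lowest (mean FPKM ± SD, n = 4). The libraries of no neighbouring pair in this order overlapped. Tlr13 made up 33.8% ± 0.427 of the summed FPKM of the 9 receptors and Tlr7 24.2% ± 0.295, and the 5 endosomal receptors together 72.2% ± 0.245 (SD, n = 4). Recovered reads per library ranged from 156 to 375 for Tlr9 and from 5772 to 9188 for Tlr13 over all 24 libraries. Noise from counting reads is therefore relatively larger for the low receptors. The spread between libraries did not always follow this: in WT S1P cells Tlr7 was at 34.1 ± 8.63 and Tlr9 at 3.85 ± 0.328 (SD, n = 4). In WT S1P cells the order was less clear: the libraries of Tlr7 and Tlr4, of Tlr8 and Tlr2 and of Tlr3 and Tlr6 overlapped.

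Of the flagellin receptor Tlr5 and the receptors Tlr11 and Tlr12, which bind profilin of parasites, only Tlr5 passed the filter, at an FPKM of 0.752 to 1.89. Tlr11 was at 0 to 0.0981 and listed at 0 in 13 of 24 libraries, and Tlr12 was at 0 to 0.0319 and listed at 0 in 21. Tlr5 was lower with S1P in WT cells (-0.24 ± 0.09, adjusted p = 0.0252) and higher in KO cells than in WT under ACM (0.26 ± 0.09, adjusted p = 0.0286) and S1P (0.46 ± 0.09, adjusted p = 0.000102), at levels near the filter. The S1P difference in WT cells was not called without a filter (adjusted p = 0.0538), in a fit of only those groups (0.078) and without any 1 of WT untreated 1 and 4 and WT S1P 26, 27 and 28 (0.06 to 0.0751). The genotype difference under ACM was not called without a filter (0.0623), only those groups (0.0527) and without any 1 of WT ACM 20, 21 and 22 and KO ACM 85, 86 and 88 (0.0548 to 0.0949).

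**Figure D1:**
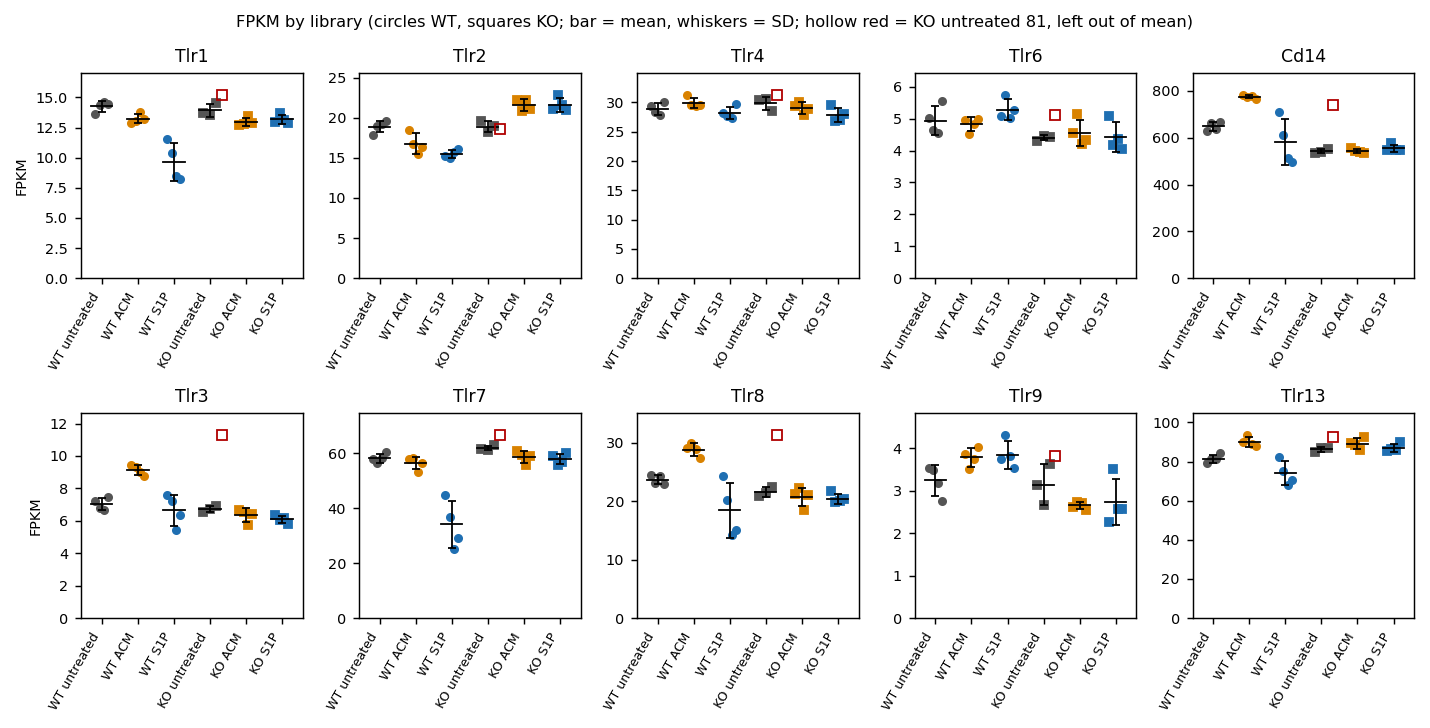
FPKM (y axis, linear, from 0) of the 5 surface genes (top row) and 5 endosomal receptors (bottom row) in each library of the 6 groups (x axis); bars are means and whiskers SD, and the hollow red square is the library labelled KO untreated 81, left out of the mean. WT S1P libraries are spread widely for Tlr7 (25.3 to 44.9) and Cd14 (495 to 708), KO groups lie close together, and Tlr4 stays between 26.8 and 31.2 in all 24 libraries.

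Under ACM, WT macrophages held more Tlr3, Tlr13 and Cd14 transcript and less Tlr2 than untreated cells. In this comparison 4 of the 10 genes were called, 3 higher and 1 lower, beside 24.9% of the 11355 genes tested (13.86% higher and 11.03% lower). The median difference of the 10 genes was 0.10 on the log2(FPKM + 1) scale and that of all genes -0.00. The 4 WT ACM libraries did not overlap the 4 untreated ones for 4 of the 10 genes, all higher with ACM, against 28.8% of all genes tested.

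The duplex RNA receptor Tlr3 had an FPKM of 7.20, 6.82, 6.68 and 7.46 untreated and 9.44, 9.32, 9.03 and 8.77 with ACM. All 4 ACM libraries lay above all 4 untreated ones. Tlr3 rose by 0.34 ± 0.06 (SE) on the log2 scale (adjusted p = 0.000551). An antisense gene, Gm45542, overlaps Tlr3, and without a stated strand setting their reads cannot be told apart.

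Cd14, the lipopolysaccharide co-receptor, stood at 782, 772, 777 and 767 with ACM, above every untreated library. It rose by 0.26 ± 0.07 (adjusted p = 0.00979), while the summed macrophage markers were lower than untreated in every ACM library. Tlr13 was at 89.7, 93.5, 88.8 and 88.04 with ACM, again above all untreated libraries, and rose by 0.14 ± 0.04 (adjusted p = 0.015). Scaling all libraries to 1 common sum (TPM) took away both calls (Tlr13 0.03, adjusted p = 0.755, and Cd14 0.14, adjusted p = 0.144). Quantile normalization did so too (Tlr13 0.06, adjusted p = 0.266, and Cd14 0.17, adjusted p = 0.0983). The Tlr13 call was also lost with TPM scaling that left out the gene Gm23935 (0.10, adjusted p = 0.0526) and without library WT ACM 20 (adjusted p = 0.0516).

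Tlr2 fell with ACM, from 17.9, 18.97, 19.2 and 19.6 to 18.5, 16.7, 15.4 and 16.3. One ACM library, 19, lay within the untreated range. The difference was -0.17 ± 0.04 (adjusted p = 0.00833), and the exact 2-sided permutation test gave p = 0.0571. Tlr8 was at 29.1, 29.9, 28.8 and 27.4 with ACM against 24.4, 23.1, 24.2 and 22.9 untreated. The groups did not overlap, but the difference of 0.27 ± 0.10 was not called by limma (adjusted p = 0.0588). It was called in a fit of the WT untreated and WT ACM libraries only (adjusted p = 0.00039). Tlr1 (-0.10 ± 0.06), Tlr4 (0.05 ± 0.04), Tlr6 (-0.02 ± 0.06), Tlr7 (-0.05 ± 0.10) and Tlr9 (0.18 ± 0.09) were not called, and TPM scaling called Tlr1 lower (-0.21, adjusted p = 0.0264).

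Under S1P, WT macrophages held less Tlr7, Tlr1, Tlr8, Tlr2, Cd14 and Tlr13 transcript. All 6 called genes were lower, beside 54.3% of genes called in this comparison (26.33% higher and 28.01% lower). The median difference of the 10 genes was -0.16 and that of all genes 0.00. The libraries of the groups did not overlap for 3 of the 10 genes, Tlr1, Tlr2 and Tlr7, all lower with S1P, against 45.2% of all genes tested. With library 81 in the fit, 5 of the 10 were called, beside 52.4% of genes.

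Tlr7, a receptor for single-stranded RNA, had the largest difference of the 10 genes. Its FPKM was 57.8, 56.5, 58.3 and 60.5 untreated and 44.9, 36.9, 25.3 and 29.3 with S1P. The highest S1P library was below the lowest untreated one. Tlr7 fell by 0.79 ± 0.10, a ratio of 0.579 (adjusted p = 1.15e-06; exact 2-sided permutation p = 0.0286, the smallest that 70 arrangements can give).

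Its neighbour Tlr8, 40599 bases away on chromosome X, was at 24.3, 20.2, 14.2 and 15.1 with S1P. Library 25 lay within the untreated range of 22.9 to 24.4 and the other 3 below it. Tlr8 fell by 0.37 ± 0.10 (adjusted p = 0.00418), a call that was lost in a fit of the WT untreated and WT S1P libraries only (adjusted p = 0.0619; exact permutation p = 0.114). Tlr13 was at 82.2, 75.1, 68.0 and 70.6, with library 25 inside the untreated range, and fell by 0.14 ± 0.04 (adjusted p = 0.00651, or 0.072 in the fit of those groups only). The exact permutation test of Tlr13 gave p = 0.114.

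Among surface receptors, Tlr1 was at 11.5, 10.4, 8.49 and 8.25 with S1P, all below the untreated range of 13.6 to 14.6, and fell by 0.53 ± 0.06 (adjusted p = 5.97e-07). Tlr2, its partner, was at 15.2, 14.9, 15.8 and 16.1. All 4 were below the lowest untreated library, and Tlr2 fell by 0.27 ± 0.04 (adjusted p = 2.55e-05). Tlr6, the other partner of Tlr2, was at 5.09, 5.74, 5.02 and 5.28 against 5.02, 4.65, 4.54 and 5.55 untreated, a difference of 0.08 ± 0.06 that was not called. Tlr1 and Tlr6 lie 18467 bases apart on chromosome 5 and share 454 identical runs of 50 bases, 13.6% of the runs of Tlr1 and 12.3% of those of Tlr6, so the counting could split some reads between them. The difference of Tlr4 was -0.03 ± 0.04, that of Tlr3 -0.08 ± 0.06 and that of Tlr9 0.19 ± 0.09, none of them called. Tlr9 was called higher with median scaling (0.23, adjusted p = 0.0317), without WT untreated 1 (adjusted p = 0.0454) and without WT S1P 28 (adjusted p = 0.0494). Cd14 was at 708, 611, 512 and 495 and fell by 0.17 ± 0.07 (adjusted p = 0.0421). Library 25 lay above and libraries 27 and 28 far below the untreated range of 627 to 666, and the call was lost with library 81 (adjusted p = 0.118), with no filter (0.109), with quantile normalization (0.11), with median scaling (0.0966) and in the fit of those groups only (0.209). It was also lost without any 1 of 5 libraries, WT untreated 2, 3 and 4 and WT S1P 27 and 28 (adjusted p = 0.0555 to 0.205). The exact permutation test of Cd14 gave p = 0.286.

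**Figure D2:**
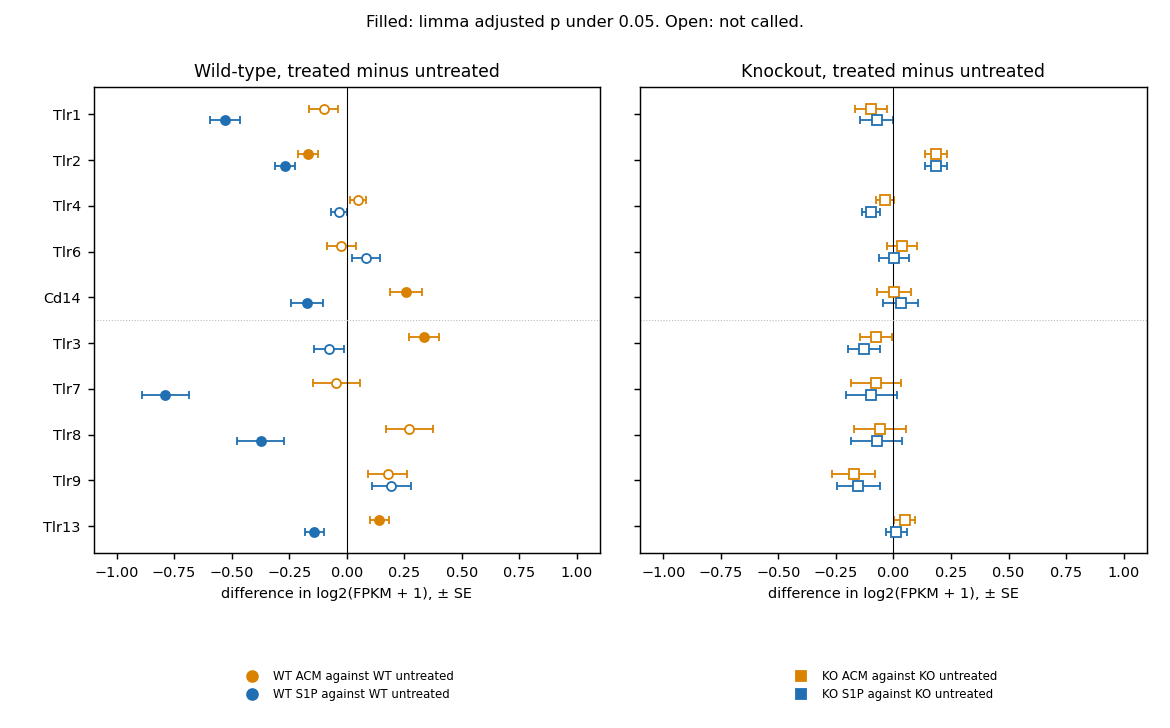
Difference in log2(FPKM + 1) from untreated cells of the same genotype (x axis; point and SE from limma) for each gene (y axis; surface genes above the dotted line, endosomal below), with ACM in orange and S1P in blue. Filled points passed an adjusted p of 0.05: 4 with ACM and 6 with S1P in WT cells, 0 in KO cells; both treatments of a genotype share their untreated libraries.

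The WT S1P libraries were uneven. Against the mean of the WT untreated libraries, Tlr7 was at -0.37 in library 25, -0.64 in 26, -1.17 in 27 and -0.97 in 28, and Tlr8 at 0.03, -0.22, -0.70 and -0.61. Cd14 stood at 0.13, -0.09, -0.34 and -0.39 and Tlr13 at 0.01, -0.12, -0.26 and -0.20 in the same libraries. For 9 of the 10 genes the lowest of the 4 values was in library 27 or 28, Tlr2 being the exception. The share of all genes with this order was not counted. Among the 9, Tlr6 was at 0.02 in library 27 and 0.04 in 25, Tlr4 was highest in 28 (0.04), and Tlr9 was above 0 in all 4. Tlr2 was about as low in each (-0.29, -0.32, -0.25 and -0.22). The summed macrophage markers were 5769, 5089, 4380 and 4190 and the monocyte markers 20.03, 15.8, 10.54 and 10.97 in libraries 25, 26, 27 and 28. Their part in these differences was not tested. Leaving out 1 library at a time, the Tlr7 difference ranged from -0.93 without WT S1P 25 to -0.66 without WT S1P 27, that of Tlr8 from -0.51 to -0.26 without the same libraries, and that of Tlr1 from -0.61 without WT S1P 25 to -0.46 without WT S1P 28; these 3 genes were called each time.

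**Figure D3:**
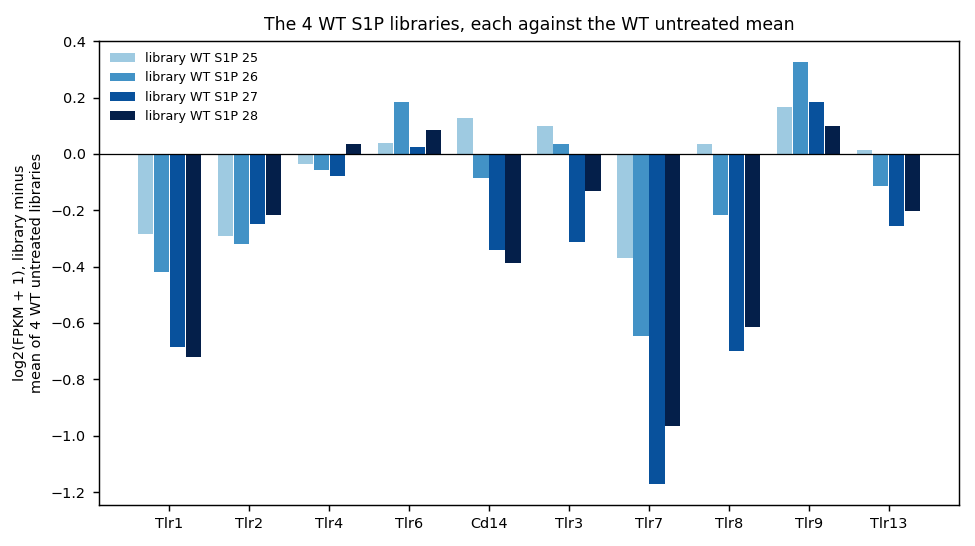
Log2(FPKM + 1) of each WT S1P library minus the mean of the 4 WT untreated libraries (y axis) for each gene (x axis), 1 bar per library. Tlr7 is lowest in library 27 (-1.17) and least lowered in library 25 (-0.37). Tlr2 lies between -0.32 and -0.22 in all 4, and Cd14, Tlr3, Tlr4, Tlr8 and Tlr13 lie on both sides of 0.

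Set directly against each other in WT cells, ACM and S1P gave different receptor levels. With ACM, 6 of the 10 genes were higher than with S1P and 0 lower, beside 44.0% of genes called (24.37% higher and 19.61% lower). They were Tlr7 (0.74 ± 0.10, adjusted p = 6.46e-06), Tlr8 (0.65 ± 0.10), Cd14 (0.43 ± 0.07), Tlr1 (0.43 ± 0.06), Tlr3 (0.41 ± 0.06) and Tlr13 (0.28 ± 0.04), and for each all 4 ACM libraries lay above all 4 S1P libraries. A seventh gene without overlap, Tlr6, was lower in all ACM libraries and not called (-0.11 ± 0.06, adjusted p = 0.177 by limma), so 7 of 10 did not overlap, beside 37.2% of all genes. Tlr2 (0.10 ± 0.04, adjusted p = 0.0671) and Tlr4 (0.08 ± 0.04, adjusted p = 0.0697) were not called. Tlr2 was called without WT ACM 21 (0.14, adjusted p = 0.0154) and Tlr4 without WT S1P 28 (0.11, adjusted p = 0.0299). TPM scaling called Tlr6 lower (-0.17, adjusted p = 0.0252).

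In KO macrophages none of the 10 genes was called with either treatment or between treatments by limma. At an unadjusted limma p under 0.05 there were 1 with ACM (Tlr2), 2 with S1P (Tlr2 and Tlr4) and 0 between treatments. The share of all genes at that unadjusted level was not counted, so these counts have no background beside them. Ranked by p among the 11355 genes tested, Tlr2 stood at 46 with ACM and 60 with S1P, and Tlr4 at 602 with S1P. By adjusted p, as for the calls, all genes tested were called in 0.0440% of cases with ACM, 0.185% with S1P and 0.229% between treatments. Tlr2 had the smallest p in both: it was at 19.6, 18.2 and 18.95 untreated, 22.3, 20.9, 22.2 and 21.1 with ACM and 21.1, 22.8, 21.6 and 21.002 with S1P. All treated libraries lay above all untreated ones. With each treatment 3 of the 10 genes did not overlap, beside 10.2% of all genes with ACM and 11.5% with S1P. The Tlr2 difference was 0.18 ± 0.05 with each (adjusted p = 0.248 and 0.174; exact 2-sided permutation p = 0.0286 for each). Both differences use the same 3 untreated libraries. Cd14 was at 536, 539 and 552 untreated, 534 to 555 with ACM and 545 to 577 with S1P, and Tlr7 at 61.2 to 62.9, 55.7 to 60.7 and 55.9 to 60.01.

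Whether the responses differed between genotypes was tested with the genotype by treatment interaction, KO response minus WT response. For ACM, 2 of the 10 genes passed, beside 14.9% of all genes: Tlr2 (0.35 ± 0.07, adjusted p = 0.000822) and Tlr3 (-0.41 ± 0.09, adjusted p = 0.00504). The interactions of Tlr8 (-0.33 ± 0.15, adjusted p = 0.154), Tlr9 (-0.35 ± 0.13, adjusted p = 0.0669) and Cd14 (-0.25 ± 0.10, adjusted p = 0.101) did not pass, though a fit of those 4 groups alone called all 3 (adjusted p = 0.00332, 0.0291 and 0.000103) and Tlr9 was called with library 81 (-0.41, adjusted p = 0.0298). For S1P, 5 of the 10 passed, beside 41.6% of all genes: Tlr7 (0.69 ± 0.15, adjusted p = 0.000792), Tlr1 (0.45 ± 0.10, adjusted p = 0.000612), Tlr2 (0.45 ± 0.07, adjusted p = 1.21e-05), Tlr13 (0.15 ± 0.06, adjusted p = 0.048) and, with the opposite sign, Tlr9 (-0.35 ± 0.13, adjusted p = 0.0322). The Tlr13 interaction lost its call with library 81 (adjusted p = 0.0999), no filter (0.0944), TPM scaling with and without Gm23935 (0.215 and 0.0687), median scaling (0.118) and only those groups (0.0892), and without any 1 of 13 of the 15 libraries left out in turn (0.0502 to 0.112), the exceptions being WT untreated 1 and WT S1P 25. That of Tlr9 was lost with no filter (0.0779), TPM scaling (0.0508) and only those groups (0.0761), and without any 1 of 7 libraries (0.056 to 0.116): WT untreated 4, WT S1P 26, KO untreated 79 and 82, and KO S1P 91, 93 and 94. Without WT S1P 25, Tlr8 (0.44, adjusted p = 0.00317) and Cd14 (0.30, adjusted p = 0.000963) were called as well. For Tlr2 the differences from untreated were -0.17 with ACM and -0.27 with S1P in WT cells and 0.18 with each in KO cells, where neither was called by itself.

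Between genotypes, untreated cells had the fewest calls. Cd14 was at 536, 539 and 552 in KO untreated cells against 627 to 666 in WT, and was the 1 of 10 genes called, lower by -0.26 ± 0.08 (adjusted p = 0.0368), beside 8.15% of all genes (4.03% lower). The groups did not overlap, but the call was lost with library 81 (-0.15, adjusted p = 0.442), with no filter (adjusted p = 0.0932), with quantile normalization (0.0688) and without any 1 of 6 libraries (0.0595 to 0.11): WT untreated 2, 3 and 4 and KO untreated 79, 80 and 82. With library 81, 0 of the 10 genes and 2.47% of all genes were called. In all, 5 of the 10 genes did not overlap between the genotypes, beside 22.5% of all genes. Cd14, Tlr6 (-0.13 ± 0.07) and Tlr8 (-0.13 ± 0.11) were lower in all 3 KO libraries, and Tlr7 (0.09 ± 0.11) and Tlr13 (0.08 ± 0.04) higher, the 4 receptors without a call. Tlr2 had a mean of 18.9 ± 0.721 in KO (SD, n = 3) and 18.9 ± 0.717 in WT untreated cells (SD, n = 4).

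Under ACM 5 of 10 genes differed between genotypes, beside 29.7% of all genes (1521 genes higher and 1852 lower in KO). Tlr2 was higher in KO, 20.9 to 22.3 against 15.4 to 18.5, by 0.35 ± 0.04 (adjusted p = 2.55e-06). Cd14 was lower, at 555, 545, 538 and 534 against 767 to 782, by -0.51 ± 0.07 (adjusted p = 6.75e-06). Tlr3 was lower by -0.47 ± 0.06 (adjusted p = 8.4e-06), Tlr8 by -0.46 ± 0.10 (adjusted p = 0.00164) and Tlr9, at 2.55 to 2.74 against 3.50 to 4.04, by -0.39 ± 0.09 (adjusted p = 0.00142). For each of the 5, all KO ACM libraries lay on 1 side of all WT ACM libraries, as for 32.4% of all genes. Tlr1, Tlr4, Tlr6, Tlr7 and Tlr13 were not called.

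Under S1P 6 of 10 genes differed, beside 54.0% of all genes (27.69% higher and 26.35% lower in KO). Tlr7 was higher in KO, at 59.0, 55.9, 56.7 and 60.01, by 0.78 ± 0.10 (adjusted p = 1.33e-06), and no KO library overlapped the WT S1P libraries. Tlr2 (0.45 ± 0.04, adjusted p = 2.5e-08), Tlr1 (0.42 ± 0.06, adjusted p = 1.13e-05) and Tlr13 (0.23 ± 0.04, adjusted p = 5.9e-05) were also higher, without overlap. Tlr9 (-0.39 ± 0.09, adjusted p = 0.000639) and Tlr6 (-0.21 ± 0.06, adjusted p = 0.00577) were lower, Tlr6 with overlapping libraries (exact permutation p = 0.0571). So 5 of 10 did not overlap, beside 46.7% of all genes. Cd14, lower in KO cells under ACM, was at 545, 577, 549 and 545 in KO S1P cells, within the wide range of WT S1P cells (-0.05 ± 0.07, adjusted p = 0.535). Neutrophil markers were higher and macrophage markers mostly lower in KO than in WT cells, and their part in these differences was not tested.

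**Figure D4:**
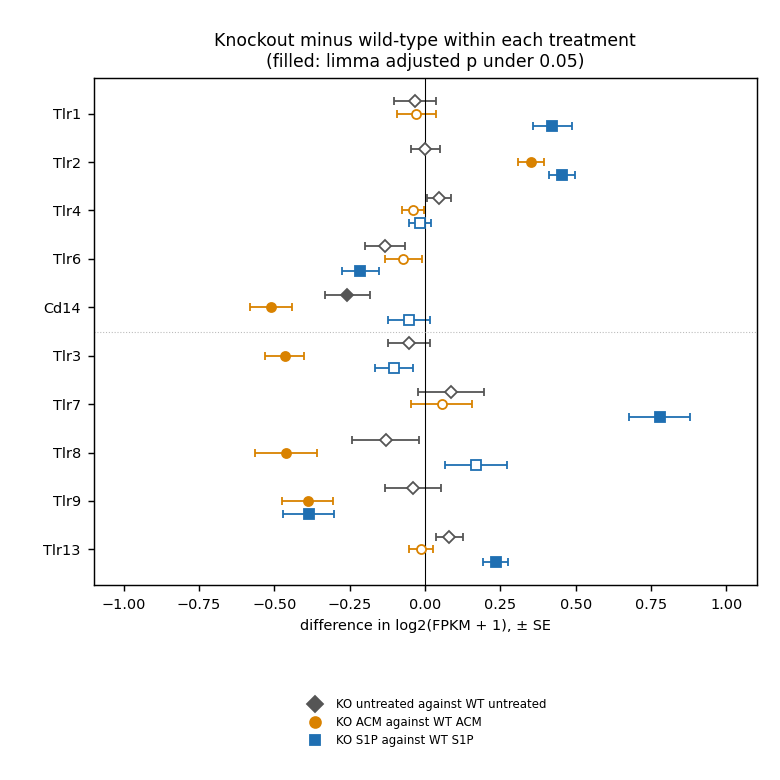
KO minus WT difference in log2(FPKM + 1) (x axis; point and SE from limma) for each gene (y axis), untreated in grey, ACM in orange and S1P in blue; filled points passed an adjusted p of 0.05. Untreated cells have 1 filled point (Cd14), ACM 5 and S1P 6, and Tlr2 is to the right of 0 under both treatments and at 0.00 untreated.

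Tlr4 was called in 0 of 11 comparisons by limma with the 23 libraries. It was called in WT ACM against WT S1P when library WT S1P 28 was left out (0.11, adjusted p = 0.0299). Its FPKM stayed between 26.8 and 31.2 over all 24 libraries, with group means from 27.9 ± 1.24 (KO S1P) to 29.95 ± 0.864 (WT ACM; SD, n = 4 each). Without adjustment, 2 of the 11 passed 0.05, WT ACM against WT S1P and KO S1P against KO untreated. Cd14, which delivers ligand to Tlr4, varied more, and the ratio of Cd14 to Tlr4 FPKM averaged 22.4 ± 0.896 untreated, 25.9 ± 0.597 with ACM and 20.6 ± 3.71 with S1P for WT (SD, n = 4 per group). The KO averages were 18.2 ± 0.965 untreated (SD, n = 3), 18.7 ± 0.512 with ACM and 19.9 ± 1.3 with S1P (SD, n = 4 per group).

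The 2 related receptors on chromosome X did not keep 1 ratio. Tlr7 FPKM over Tlr8 FPKM averaged 2.46 ± 0.119 untreated, 1.96 ± 0.0868 with ACM and 1.85 ± 0.0648 with S1P for WT (SD, n = 4 per group). The KO averages were 2.88 ± 0.0812 untreated (SD, n = 3), 2.85 ± 0.143 with ACM and 2.84 ± 0.0909 with S1P (SD, n = 4 per group). All 8 libraries of treated WT cells lay under the lowest WT untreated library (2.37), and all 11 KO libraries above the highest (2.64). Under ACM the WT ratio was lower with Tlr8 higher at nearly the same Tlr7, and under S1P both receptors were lower, Tlr7 more so. The uneven WT S1P libraries had ratios of 1.79 to 1.94, a narrower spread than that of either receptor. These ratios were chosen after their values were seen and were given no test.

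**Figure D5:**
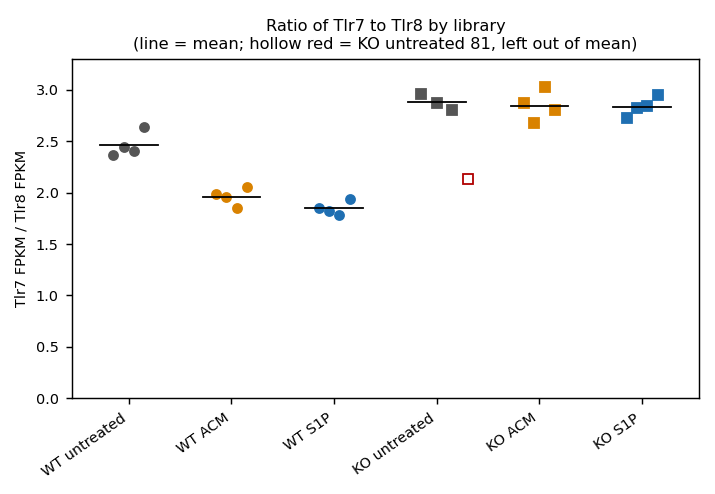
Ratio of Tlr7 to Tlr8 FPKM (y axis, linear, from 0) in each library of the 6 groups (x axis), with the group mean as a line; the hollow red square is the library labelled KO untreated 81 (2.13), left out of its group's mean. Treated WT libraries lie at 1.79 to 2.06, WT untreated at 2.37 to 2.64 and KO libraries at 2.68 to 3.02.

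The library labelled KO untreated 81 was outside the range of the other 3 KO untreated libraries for 9 of the 10 genes, above it each time, and was the highest of all 24 libraries for 4. How often this held over all genes was not counted, so these counts describe the library and not a trait of the 10 genes. It had an FPKM of 11.3 for Tlr3, 31.3 for Tlr8, 66.6 for Tlr7 and 15.2 for Tlr1, and 738 for Cd14, against 6.56 to 6.92, 20.8 to 22.5, 61.2 to 62.9, 13.5 to 14.5 and 536 to 552 in the other 3. Its Tlr2 (18.6) was within their range. Nor did this library match WT untreated cells throughout. Its Tlr3, Tlr8 and Cd14 were above the WT untreated ranges of 6.68 to 7.46, 22.9 to 24.4 and 627 to 666. So were its Tlr1, Tlr4, Tlr7, Tlr9 and Tlr13, while Tlr2 and Tlr6 were within. Its macrophage markers summed to 6004, against 7261 to 7484 in WT untreated cells. What this library is was not tested.

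Genes whose levels ran closest to those of a member over the 23 libraries were found among 6766 other protein-coding genes with a mean FPKM of at least 5, for the 5 members whose group means ranged over at least 0.5 on the log2 scale. The Pearson correlations below are descriptions over libraries that share groups. Tlr1 ran closest with Kdr, Arl6ip1 and Kif18b (0.97 each), and Tlr7 with Hacd4, Hjurp and Plk1 (0.98 each), Plk1 being a mitotic kinase. Tlr3 ran closest with Rnf213, Dhx58 and Trim30a (0.96 each), Dhx58 being an interferon-induced relative of the RNA sensor RIG-I. Tlr8 ran closest with Themis2, Gm5431 and Cd300e (0.97, 0.96 and 0.96), and Cd14 with the Fc receptor gene Fcgr1 (0.97), Elmo2 and Ifi47.

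Other genes of the pathway were read in groups, by counts of members called. All genes tested were called in 24.9% of cases with ACM and 54.3% with S1P in WT cells. Of 9 co-receptors and accessory proteins 7 were tested. In WT cells 5 were higher and 1 lower with ACM, and 3 higher and 3 lower with S1P (median 0.24 and 0.03, all genes -0.00 and 0.00). The scavenger receptor Cd36, which can act with Tlr2 and Tlr6, rose by 0.48 ± 0.04 with ACM and 0.61 ± 0.04 with S1P (adjusted p = 3.83e-09 and 1.44e-11). Clec7a, the beta-glucan receptor Dectin-1, rose by 0.40 ± 0.06 and 0.77 ± 0.06 (adjusted p = 8.81e-05 and 3.41e-09). Itgam, an integrin chain and also on the macrophage marker list, fell by 0.95 ± 0.09 with S1P (adjusted p = 2.93e-08). Cd36 was lower in KO than in WT cells untreated (-0.47 ± 0.04), under ACM (-0.94 ± 0.04) and under S1P (-1.14 ± 0.04; adjusted p = 4.41e-08, 3.73e-14 and 7.21e-16); the untreated difference was not called with library 81 (adjusted p = 0.238).

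Of 17 genes for chaperones, trafficking and cleavage of the endosomal receptors 14 were tested, with 7 higher and 1 lower under ACM and 5 higher and 3 lower under S1P in WT cells (median 0.11 and 0.06). So 8 of 14 were called with each, beside 24.9% of all genes with ACM and 54.3% with S1P. Lrrc59, which helps these receptors leave the endoplasmic reticulum, rose by 0.24 ± 0.03 with ACM and 0.43 ± 0.03 with S1P (adjusted p = 1.27e-05 and 7e-10), and Pld3, an endosomal nuclease, by 0.26 ± 0.04 and 0.50 ± 0.04 (adjusted p = 2.63e-05 and 6.65e-10). Both ACM calls were lost with TPM scaling (0.126 and 0.124). Unc93b1, their trafficking chaperone, rose with ACM by 0.25 ± 0.04 (adjusted p = 0.000325; not called with TPM scaling, 0.135) from a mean FPKM of 132 ± 7.14 to 156 ± 2.65 (SD, n = 4 each). In KO against WT cells untreated 4 of 14 were higher and 2 lower, beside 8.15% of all genes called. Some of these calls were lost with library 81, among them Lrrc59 and Ctsl (adjusted p = 0.209 and 0.647). Under ACM 3 of 14 were higher in KO and 3 lower, beside 29.7% of all genes called. Lrrc59 (-0.36 ± 0.03, adjusted p = 2.03e-08), the chaperone Hsp90b1 (-0.35 ± 0.03, adjusted p = 5.21e-08) and Unc93b1 (-0.35 ± 0.04, adjusted p = 2.54e-06) were lower. Ctsl was higher (0.52 ± 0.04, adjusted p = 3.96e-10). Ctsl, a lysosomal protease that can cleave these receptors, fell by 0.23 ± 0.04 with ACM and 0.35 ± 0.04 with S1P (adjusted p = 5.09e-05 and 4.36e-08).

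Of 6 adaptors 5 were tested. In WT cells 3 were higher and 0 lower with ACM, and 2 higher and 1 lower with S1P (median 0.24 and 0.13), beside 24.9% and 54.3% of all genes called. Pik3ap1, which links the receptors to PI3-kinase, rose by 0.26 ± 0.05 with ACM (adjusted p = 0.000356; not called with TPM scaling, 0.0589). Ticam1, the adaptor of Tlr3 and Tlr4 toward interferon genes, rose by 0.31 ± 0.06 with ACM and 0.71 ± 0.06 with S1P (adjusted p = 0.000688 and 4.64e-09), and Ticam2, its bridge to Tlr4, by 0.24 ± 0.07 and 0.46 ± 0.07 (adjusted p = 0.0108 and 4.9e-06; with ACM not called with TPM scaling, 0.151). Myd88, the adaptor of all these receptors but Tlr3, fell by 0.13 ± 0.05 with S1P (adjusted p = 0.0339), a call lost with no filter (0.0708), median scaling (0.117), a fit of the WT untreated and WT S1P libraries only (0.122) and without any 1 of WT untreated 2 and 3 and WT S1P 26, 27 and 28 (0.0783 to 0.124). All 5 adaptors were lower in KO than in WT cells under ACM (median -0.24, all genes 0.01), beside 29.7% of all genes called, Myd88 no longer with TPM scaling (adjusted p = 0.0502) and Tirap (-0.16 ± 0.06, adjusted p = 0.0433) no longer with library 81 (0.0922). Under S1P 3 of 5 were lower, beside 54.0%, and untreated 0 of 5 were called, beside 8.15%.

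Of 19 kinases and ubiquitin ligases 18 were tested. In WT cells 5 were higher and 1 lower with ACM, beside 24.9% of all genes called, and 7 higher and 4 lower with S1P, beside 54.3% (median 0.02 and -0.00). Irak2 rose with both (0.43 ± 0.05 and 0.47 ± 0.05; adjusted p = 2.04e-06 and 9.18e-08), and Ikbke, a kinase upstream of interferon regulatory factors, rose with ACM (0.41 ± 0.04, adjusted p = 1.53e-07). With S1P, Irak1, which acts next to Myd88, rose by 0.33 ± 0.03 (adjusted p = 7.97e-09) and Ikbkg, the regulatory subunit of the IkB kinase complex, by 0.65 ± 0.07 (adjusted p = 9.08e-08).

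All 12 downstream transcription factors were tested: 7 were higher and 0 lower with ACM, and 8 higher and 2 lower with S1P (median 0.18 and 0.25), beside 24.9% and 54.3% of all genes called. Irf7, which drives interferon genes, rose by 1.05 ± 0.08 with ACM (adjusted p = 1.12e-08), Irf5 by 0.49 ± 0.04 and 0.59 ± 0.04 with ACM and S1P, and Atf3, a repressor of inflammatory genes, by 0.57 ± 0.08 and 1.36 ± 0.08. All 14 inhibitors of the pathway were tested, and 11 were not called with ACM (2 higher, 1 lower) and 7 with S1P (3 higher, 4 lower), beside the same shares of all genes called. Usp18, which restrains interferon signalling, rose with ACM (0.62 ± 0.06, adjusted p = 3.25e-07), and Tnip1, which binds the ubiquitin-editing enzyme A20, rose with S1P (0.45 ± 0.05, adjusted p = 3.04e-07).

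Of 18 induced mediators 9 were tested, among the 9 untested being Il1b, Il6, Il12b and Nos2. In WT cells 5 were higher and 1 lower with ACM, and 5 higher and 3 lower with S1P (median 0.27 and 0.28), beside 24.9% and 54.3% of all genes called. Acod1, the itaconate-making enzyme, rose by 1.33 ± 0.06 and 1.22 ± 0.06 (adjusted p = 3.66e-12 and 1.85e-12), and Tnf fell by 0.52 ± 0.06 with S1P (adjusted p = 4.27e-07). In KO against WT cells 5 were lower and 1 higher untreated, 7 lower and 1 higher under ACM and 6 lower and 2 higher under S1P. All genes tested were called in 8.15%, 29.7% and 54.0% of cases. Untreated, the calls of Acod1 and of the chemokine gene Cxcl10 were lost with library 81 (adjusted p = 0.698 and 0.8). In KO cells with treatment, Acod1 was the 1 gene of these lists called against untreated (S1P, 0.35 ± 0.07, adjusted p = 0.023), a call lost with library 81 (-0.06, adjusted p = 0.955).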

How the data were processed

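RNA was extracted with Trizol and messenger RNA captured with oligo(dT), per the labels' protocols. The authors deposited FPKM for 54532 genes. The submitters' processing notes list STAR-Fusion, StringTie, featureCounts, HISAT2, STAR, edgeR and DESeq, and the builds mm10 and GRCm38; of their roles, versions and strand setting nothing more is known ("not given in the sources used here"). GENCODE M21 named 54495 of the identifiers. FPKM times exon length, put on the scale of 1 read per library, gave whole numbers (tolerance 0.05) for 96.4 to 96.7% of values, among them 9 of the 10 genes but not Cd14, and these reads are the depths given. They were not used for tests.

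The 11355 genes that reached FPKM 1 in 4 or more libraries were tested on log2(FPKM + 1), a scale that understates changes of low genes. A limma 3.58.1 model (R 4.3.3) of the 6 groups over 23 libraries, with a mean-variance trend, gave 11 comparisons. A gene was called where its p, adjusted by Benjamini-Hochberg across the tested genes, was under 0.05. The model was tested on simulated data. Exact 2-sided permutation tests were run on each of the 10 genes.

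The 10 genes, lists and rules were chosen with earlier results of these data known. Named are Trem2, the 10 genes, and called genes from the first 4 of a list by adjusted p in a comparison. Not all of these first 4 were named in each comparison, and the adaptor Tirap was named though it ranked lower. For each of the 10 genes whose group means ranged over at least 0.5, the 3 genes closest to it are named. Alternatives were a pseudocount of 0.1, other filters (none; FPKM 5), TPM scaling with and without Gm23935 (which alone holds 4.38 to 18.6% of a library's summed FPKM), quantile normalization, median scaling, a robust limma fit, the fit with library 81, fits of only the groups compared, permutation, and each library left out in turn.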

Additional observations from a re-analysis of the deposited data

Results flagged for a closer look

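In groups of 4 libraries, a library stood apart where its gap to the nearest other, divided by the range of the group, was above Dixon's critical value for that size. Over 66 groups of values 6 did so, and chance gives about 1 in 20. The library labelled KO untreated 81 stood apart for Trem2 (FPKM 79.6), Tlr3 (11.3), Tlr8 (31.3) and Cd14 (738). WT ACM 19 stood apart for Tlr4 (31.2) and KO S1P 92 for Cd14 (577).

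The response to treatment differed between genotypes by the limma interaction, KO minus WT on the log2 scale. For ACM it was 0.35 for Tlr2 and -0.41 for Tlr3. For S1P it was 0.69 for Tlr7, 0.45 for Tlr1, 0.45 for Tlr2, 0.15 for Tlr13 and -0.35 for Tlr9. The calls of Tlr13 and Tlr9 were lost with no filter, with TPM scaling and in a fit of only those groups. For Trem2 under S1P it was -0.36 (adjusted p = 9.45e-05).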

How the results depend on the processing

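Of the 35 differences called among the 10 genes by limma in 11 comparisons, 10 lost the call in at least 1 of 11 settings or with a library left out. None changed sign (0 of 35) in these settings or with any of 23 libraries left out. With other filters, the robust fit, fits of only the groups compared and permutation, a gene's difference is the same by design. Only the other settings could therefore change a sign. Of the 75 not called, 29 changed sign in a setting, 0 of them called with the opposite sign, and 17 were called in a setting. In these counts an unadjusted permutation p under 0.05 stood as a call. By permutation alone, Tlr2 under WT ACM and Tlr6 in KO S1P against WT S1P lost the call. By permutation alone, Tlr2 in KO cells with either treatment, Tlr3 in KO cells with S1P and Tlr8 between untreated genotypes gained it. Of 130 called differences of pathway genes, 0 changed sign and 30 lost the call in a setting. The cause of these changes was not tested.

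Counts of the 10 genes called changed as follows. WT ACM against untreated had 2 with quantile normalization, and WT S1P against untreated 3 in the fit of only those groups. KO against WT untreated had 0 with no filter, quantile normalization or library 81, and 0 to 1 with 1 library left out. The ACM interaction had 5 in the fit of only those groups, and the S1P interaction 3 with no filter, TPM scaling or only those groups, and 3 to 7 with 1 library left out.

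Over all genes, KO ACM against untreated called 5 genes, but 2 with no filter, 2 with TPM scaling, 8 with TPM scaling without Gm23935, 10 with quantile normalization, 9 with median scaling, 1 with library 81 and 1 to 5 with 1 library left out. KO S1P against untreated called 21, but 10 with TPM scaling, 1 with library 81, 3 with only those groups and 11 to 19 with 1 left out. KO ACM against KO S1P called 26, but 7, 4 and 16 in those settings and 8 to 28 with 1 left out. KO against WT untreated called 926, but 507 with TPM scaling, 281 with library 81 and 572 to 835 with 1 left out.

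TPM scaling turned Tlr4 under WT ACM to -0.0648 and median scaling Tlr4 under WT S1P to 0.0043. With 1 library left out, Tlr6 under WT ACM ranged from -0.0558 to 0.0241, Tlr3 under WT S1P from -0.14 to 0.0006, and Cd14 in KO against WT under S1P from -0.1267 to 0.0449. TPM scaling shifted the median gene by -0.10 for WT ACM against untreated and changed the calls from 1574 higher and 1253 lower to 536 and 2910, or to 1146 and 2009 without Gm23935. It also changed the split from 2767 and 2227 to 1662 and 2733 for WT ACM against WT S1P, from 468 and 458 to 170 and 337 for KO against WT untreated, from 1521 and 1852 to 1749 and 997 under ACM (2335 and 1389 without Gm23935), from 3144 and 2992 to 2256 and 3191 under S1P (2779 and 3470 with median scaling), and from 701 and 992 to 1004 and 319 for the ACM interaction (1010 and 796 without Gm23935).

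No paired analysis was possible because the groups share no library numbers. A planned search of the receptor proteins for a TIR motif was not run, since no protein table was used here.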
